A study of Mus musculus with 6 samples.

Results

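The replication-dependent histone genes were 64 of the 26452 genes in the deposited table of mouse spleen RNA. They were chosen by symbol, as every gene whose symbol begins with Hist1h, Hist2h, Hist3h or Hist4h, without symbols that hold -ps, and with a mean normalized count of at least 1 over the 6 libraries. A normalized count is a gene's read count divided by the authors' size factor for the library. The members nearest the limit were Hist2h2ab, with a mean of 1.24, and Hist2h3b, with 1.97. The genes just outside it were Hist1h2al, with 0.866, Hist1h2ba, with 0.685, and Hist1h1t, with 0.536, and Hist3h2bb-ps was left out for its symbol. By class the members were 5 linker histone H1 genes, 17 H2A, 17 H2B, 12 H3 and 13 H4 genes. By cluster they were 52 Hist1 genes on chromosome 13, 9 Hist2 genes on chromosome 3, 2 Hist3 genes on chromosome 11 and 1 Hist4 gene on chromosome 6. GENCODE M21 (GRCm38) annotates Hist1h2aj as an unprocessed pseudogene and the others as protein coding.

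Spleens of 3 Was knockout mice (Was -/-, strain 129S6/SvEvTac-Wastm1Sbs/J; libraries KO451, KO452 and KO457) were compared with those of 3 wild-type mice (strain 129S6/SvEvTac; libraries WT453, WT454 and WT455). All mice were males aged 10 weeks, and each library is named for 1 animal. The product of Was, the Wiskott-Aldrich syndrome protein, drives actin assembly in blood cells, and the labels name no cell-type driver for the allele, so that no cell type of the spleen is said to have kept the gene. Total RNA was made into libraries with an Illumina mRNA-Seq kit, and how mRNA was selected is not given in the sources used here. Each library carried the Was level that its label calls for. Was had normalized counts of 508, 407 and 409 in knockout libraries, against 4142, 6561 and 6279 in wild-type libraries, a log2 difference, knockout minus wild type, of -3.66 ± 0.25 (SE; limma adjusted p = 0.0117).

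Replication-dependent histone genes supply the core histones H2A, H2B, H3 and H4 and the linker histone H1 that package newly copied DNA. Their transcripts are made chiefly in S phase and are known as the one class of animal mRNA that usually ends without a poly(A) tail. A short hairpin after the stop codon, the histone stem-loop, is bound by Slbp, and the transcript is cut just after it. Some of these genes can also give a longer, polyadenylated transcript, known from differentiated cells that have left the cell cycle. The spleen holds resting lymphocytes beside dividing germinal centre cells and, in mice, dividing red cell precursors. Of the replication-independent histones, H3f3a and H3f3b give ordinary polyadenylated mRNAs and are made throughout the cell cycle.

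The hairpin that defines the family was found in the transcripts of most members. The pattern searched was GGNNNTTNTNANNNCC, a 16-base form of the stem-loop, on the transcript strand, within the first 100 bases after the stop codon of the GENCODE M21 transcript. It was present in 44 of 64 members (68.8%), against 45 of 19905 other genes (0.226%). Other genes were searched only where a protein-coding transcript had at least 100 annotated bases after the stop codon. Members were searched at any length, so that the rules were not equal. The other genes with a match include histone genes, among them H2afx, an H2A variant, and Hist1h1t. A match is a description of the sequence, not evidence that the site is used. Sequences of 7 members follow, 5′ to 3′, with the 16 matched bases in capitals and 5 bases on each side. They were picked because they are among the most abundant members, because their groups did not overlap, or because they carry a rarer form of the hairpin.
Hist1h1c: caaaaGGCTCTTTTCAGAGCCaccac
Hist3h2a: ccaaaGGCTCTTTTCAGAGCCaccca
Hist3h2ba: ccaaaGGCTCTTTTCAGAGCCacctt
Hist1h3d: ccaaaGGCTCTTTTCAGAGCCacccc
Hist1h3c: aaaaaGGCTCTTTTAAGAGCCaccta
Hist1h4i: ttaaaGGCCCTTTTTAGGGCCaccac
Hist1h4f: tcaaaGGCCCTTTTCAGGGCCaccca

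The hairpins fell into forms that followed the histone class. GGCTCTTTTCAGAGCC was shared by 25 members, namely 3 H1, 9 H2A, 8 H2B and 5 H3 genes, and Hist1h1c, Hist3h2a, Hist3h2ba and Hist1h3d show it with differing neighbours. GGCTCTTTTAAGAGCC, as in Hist1h3c, was found in 2 H2B and 3 H3 genes. The 12 H4 genes with a match shared no form with the 32 other members. Their commonest form was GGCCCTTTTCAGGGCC, in 7 genes including Hist1h4f, while Hist1h4i and Hist2h4 had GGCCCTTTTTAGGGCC. Of the 20 members with no match, 12 had no annotated base after a stop codon, so that no window could be searched. Hist1h2af, Hist1h2ah and Hist2h3b, also without a match, had only 1, 2 and 37 such bases, so that a hairpin further on could not be found.

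Histone transcripts were scarce in these libraries, and a few genes held most of their reads. The 64 members summed to 142, 119 and 116 CPM (ppm of all assigned reads) in KO451, KO452 and KO457, against 141, 90.7 and 100 CPM in WT453, WT454 and WT455. The 6 most abundant members, Hist1h1c, Hist1h2bc, Hist1h4i, Hist3h2a, Hist2h2be and Hist3h2ba, held 79.7% of these counts. The median member had a mean normalized count of 12.5, 53 members had a mean under 25, and 17 members had no read in at least 1 library. Libraries held between 30661759 and 38402758 assigned reads, so that a count of 0 allows up to 3 reads, or 2.45 to 3.22 normalized counts. Such floors cover counting error only.

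Per kilobase of exon, the most abundant replication-independent histones exceeded every member. Hist1h1c led the members with a level of 826 mean normalized counts per kb, followed by Hist1h4i with 703, Hist1h2bc with 454.2, Hist3h2a with 208, Hist3h2ba with 147 and Hist2h2be with 135. On the same scale, the level of H3f3a was 7084, that of H2afz 6360 and that of H3f3b 4991. H2afx, placed in this list although its transcript holds the hairpin pattern, stood at 3168. H1f0, a linker histone of resting cells, stood at 699, and Cenpa, the centromeric H3 variant, at 371.

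Most histone counts came from members with an annotated poly(A) signal, although the median levels per kilobase were close. The poly(A) signal AATAAA or ATTAAA lay in the last 50 bases of an annotated transcript in 16 of 64 members (25%), against 17042 of 21838 other genes (78%). The 16 members with a signal held 71.8% of all member counts and included 5 of the 6 most abundant members. Their median level was 21.9 normalized counts (5.16 to 1288), against 11.1 (1.24 to 525) in the 48 members without an annotated signal. Of these 48, 12 had no annotated base after the stop codon, so that a signal beyond it could not be found. Hist1h2af, Hist1h2ah and Hist2h3b had only 1, 2 and 37 such bases, and others of the 48 are annotated to end soon after the hairpin. Sequence past the annotated ends was not searched. The missing match thus does not show that a gene lacks a signal. Per kilobase of exon the medians were 20.3 with a signal and 16.9 without one. Hist1h2bc was the abundant member with neither a signal nor a hairpin in its annotated transcript, which has 2 exons. Its first exon ends at position 23684621 of chromosome 13 and its second runs from 23692176 to 23692908.

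**Figure D1:**
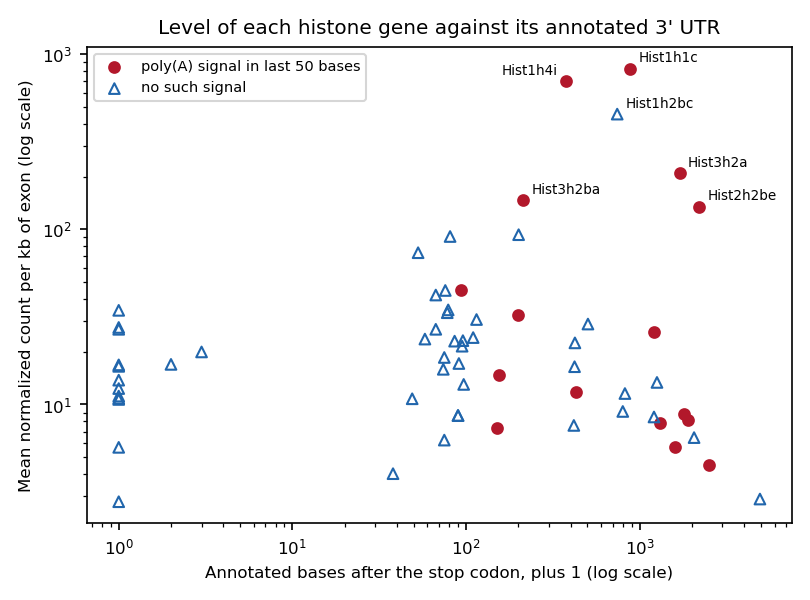
Mean normalized count per kilobase of exon (log scale) of each of the 64 histone genes against the number of annotated bases after its stop codon, plus 1 (log scale). Filled circles are the 16 genes with AATAAA or ATTAAA in the last 50 bases and open triangles the 48 others. Of the 6 labelled genes, 5 have the signal, and Hist1h2bc does not.

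Members whose transcript ran far past the hairpin were compared with those that ended close to it. In 22 members the annotation ended within 100 bases of the hairpin, with a median level of 11.8 normalized counts (2.89 to 39.1), and none of the 6 most abundant members was among them. In the other 22 it ran further, by up to 4884 bases in Hist1h1d, with a median level of 21.9 (7.94 to 1288). Per kilobase of exon the order turned round, with medians of 23.4 in members that ended close to the hairpin and 14.0 in those that ran past it. The exon length in this measure includes the bases past the hairpin, so that the order depends in part on the split itself. These are annotated ends, and which end was used in these spleens was not measured.

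The genotype comparison gave a group of genes of which most averaged higher in knockout spleens but none passed the test. The log2 fold change, knockout minus wild type, was above 0 in 55 of 64 members (85.9%), against 47.7% of the 22071 genes tested. Its median was 0.74 over the members, against -0.03 over all genes tested. Hist2h2aa1 and Hist2h3b had no read in any wild-type library, and the median was 0.69 with both set to the bound that a floor of 3 reads per library gives. At a Benjamini-Hochberg adjusted p under 0.05 (limma over all genes tested), 0 of 64 members were called, against 0.00906% of all genes tested, and the smallest adjusted p of a member was 0.391. In a whole spleen, more cells of a dividing type and more histone RNA per cell cannot be told apart.

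Under weaker call rules the members' shares were close to or below those of all genes tested, except for the size of the fold change. An unadjusted limma p under 0.05 was reached by 4 members (6.25%), all higher in knockout spleens, where 5.5% of all genes tested were higher at that p. No member was lower at that p, where 5.46% of all genes tested were. The groups did not overlap in 5 members with higher knockout values, against 9.54% of all genes tested, and in 1 with lower values, against 9.94%. A log2 fold change of at least 1 was found in 24 members (37.5%), against 10.1% of all genes tested, and one of -1 or less in Hist1h2ac alone, against 12.3%. The authors' deposited table lists 1 member at an FDR under 0.05, Hist2h2aa1, where 2.57% of the genes tested are listed as higher. It lists no member as lower, where 1.73% of the genes tested are.

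**Figure D2:**
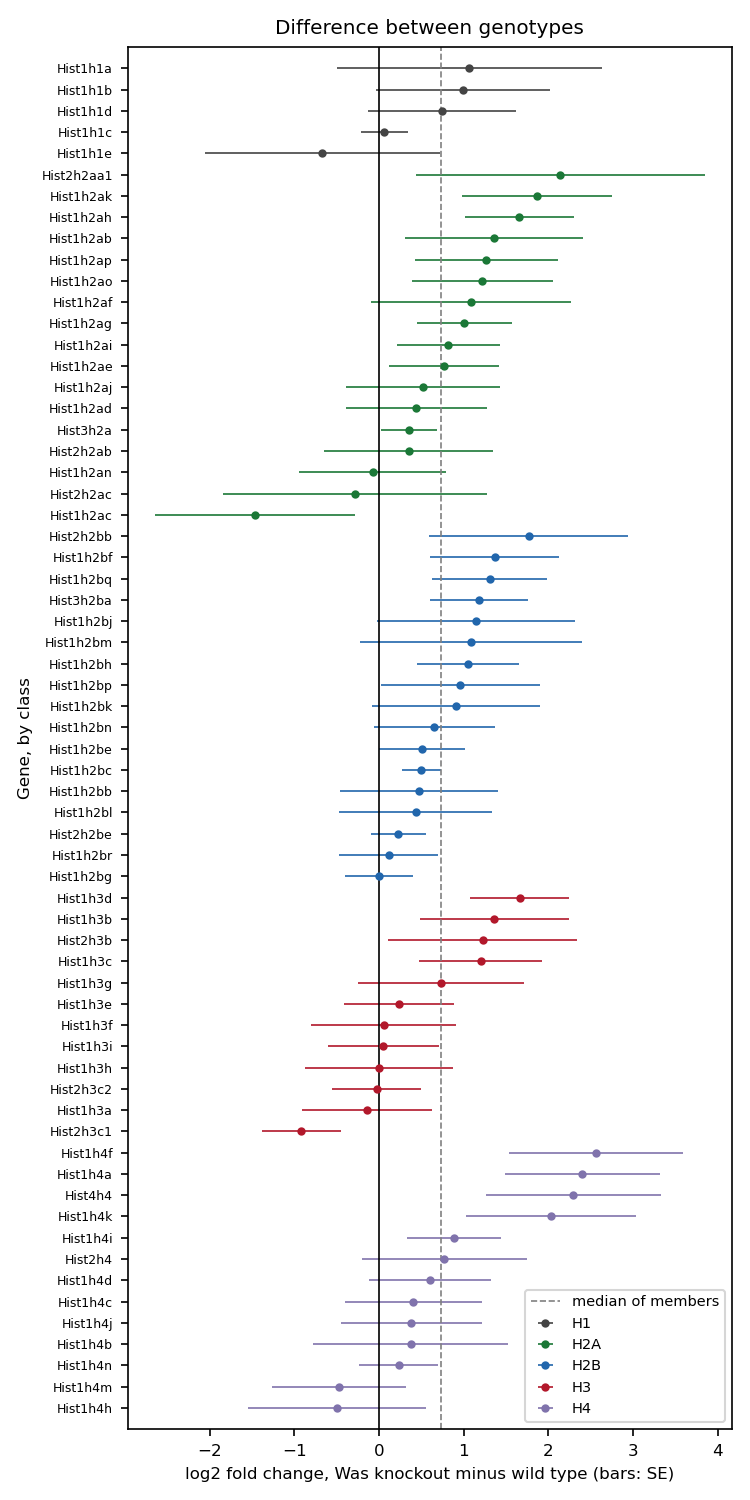
The log2 fold change, Was knockout minus wild type, of each of the 64 histone genes by class, with its standard error from limma as a bar. The dashed line marks the members' median of 0.74; 55 points lie above 0, and all 17 H2B points do.

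The spread between animals ran across the genotypes. The median deviation of the members from their mean over the 6 libraries, on the log2 scale, was 0.78 in KO451, -0.07 in KO452 and 0.58 in KO457, against 0.53 in WT453, -0.74 in WT454 and -0.61 in WT455. WT453 thus lay with KO451 and KO457, and KO452 lay between them and the other wild types. The highest value was found in KO451 for 24 members, in KO457 for 17 and in KO452 for 3, against WT453 for 16, WT454 for 3 and WT455 for 1. WT453 exceeded both other wild types in 45 members (70.3%), against 44.2% of all genes tested. Without WT453 the members' median log2 fold change was 1.17, with 59 members above 0. Then 14 members (21.9%) were higher at an unadjusted limma p under 0.05, against 8.53% of all genes tested. Without WT454 the median was 0.44, with 45 members above 0. At that p 1 member was then higher, against 871 of the 22071 genes tested. Without WT455 the median was 0.61, with 48 members above 0. At that p 0 members were then higher, against 977 of the genes tested. No member passed the adjusted threshold in any of these cases.

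**Figure D3:**
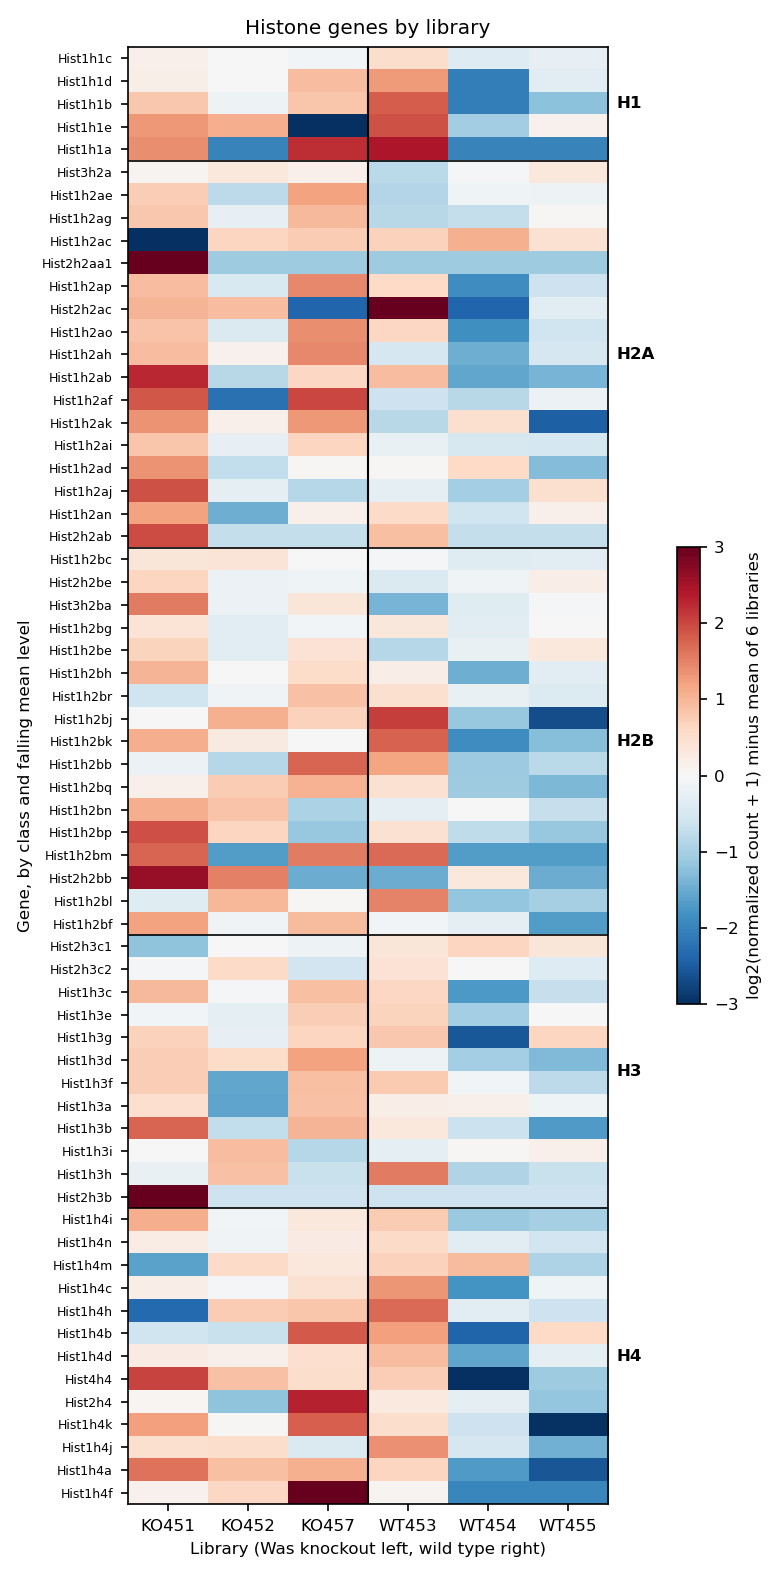
Heat map of log2(normalized count + 1) of the 64 histone genes in each library, less the gene's mean over the 6 libraries, with Was knockout libraries left and wild type right. Rows run by class and falling mean level, and colours are clipped at 3 in either direction. KO451, KO457 and WT453 are mostly red, with median deviations of 0.78, 0.58 and 0.53, and WT454 and WT455 mostly blue.

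Linker histone H1 was dominated by a single gene. The 5 H1 genes summed to 40.2, 39.9 and 34.7 CPM in KO451, KO452 and KO457, against 59.0, 31.4 and 34.5 CPM in WT453, WT454 and WT455. Hist1h1c (chromosome 13, 23738808 to 23740367, plus strand), which is also expressed in non-dividing cells, had normalized counts of 1410, 1282 and 1185 in knockout libraries, against 1808, 972 and 1071 in wild-type libraries. The wild-type values enclosed the knockout values, with WT453 highest and WT454 lowest. The log2 difference was 0.06 ± 0.28 (SE; limma adjusted p = 0.96). This was the smallest difference in size among the 5 H1 genes, where the median of all members was 0.74.

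Hist1h1d had normalized counts of 19.3, 17 and 33.2 in knockout libraries, against 42.3, 3.26 and 13.5 in wild-type libraries. The highest and the lowest value were both wild type. The difference of 0.74 ± 0.87 (SE; limma adjusted p = 0.776) became -0.11 without WT454. Hist1h1a and Hist1h1b share no 50-base stretch with another gene, so that reads of other genes are the least likely to enter their counts. Hist1h1b had 24.7, 12 and 24.9 in knockout libraries, against 50.5, 2.45 and 5.19 in wild-type libraries. Hist1h1e had no read in KO457, against 24.7 and 21 in KO451 and KO452 and 38.1, 4.08 and 10.4 in wild-type libraries. Its exons overlap those of Hist1h2be, which had 46.7 in KO457, and the part of read assignment in that 0 was not tested.

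Among H2A genes, 14 of 17 had a log2 fold change above 0, with a median of 0.82. The class summed to 20.6, 18.7 and 19.4 CPM in knockout libraries, against 11.8, 16.1 and 19.6 CPM in wild-type libraries. Hist3h2a (chromosome 11, 58954685 to 58956830, plus strand), the main H2A gene here, had normalized counts of 456.7, 537 and 481 in knockout libraries, against 246, 425 and 538 in wild-type libraries. WT453 was the lowest of the 6 libraries for this gene, unlike for most members, and WT455 the highest. The log2 difference came to 0.35 ± 0.33 (SE; limma adjusted p = 0.721).

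The second H2A gene by level, Hist1h2ae, had 33.2, 11 and 46.7 in knockout libraries, against 10.3, 17.9 and 17.7 in wild-type libraries, with KO452 inside the wild-type range. This gave a log2 difference of 0.76 ± 0.65 (SE; limma adjusted p = 0.701). Hist1h2ah had 12.9, 7 and 18.7 in knockout libraries, against 4.12, 1.63 and 4.16 in wild-type libraries, and the groups did not overlap. The log2 difference was 1.66 ± 0.65 (SE; limma adjusted p = 0.425), and it was one of the 4 members with an unadjusted p under 0.05. Of its 50-base stretches, 92.1% also occur in another gene, among them Hist1h2ad, Hist1h2ai and Hist1h2an, so that its reads are uncertain. Hist1h2ao and Hist1h2ap, near-identical copies, had almost the same counts. They had 16.1, 6 and 23.9 and 17.2, 6 and 24.9 in knockout libraries, against 13.4, 1.63 and 5.19 for both genes in wild-type libraries. In whole reads the wild-type counts were 13, 2 and 5 for both genes. Whether the same reads were counted for both was not tested, so that they may not be separate measurements.

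Most of the remaining H2A genes had mean levels under 12 normalized counts, with KO451 or KO457 as the highest library. Hist1h2ag, at a mean of 21.7, had 34.3, 16 and 38.4 in knockout libraries, against 10.3, 11.4 and 19.7 in wild-type libraries, and KO452 lay inside the wild-type range. Its log2 difference was 1.008 ± 0.56 (SE; limma adjusted p = 0.535). Hist1h2ak had the largest log2 difference among H2A genes with reads in both groups, 1.87 ± 0.89 (SE; limma adjusted p = 0.496), from 12.9, 5 and 12.5 in knockout libraries, against 2.06, 6.53 and 0 in wild-type libraries. Hist2h2ac had its highest value in WT453, with 9.65, 9 and 0 in knockout libraries, against 45.4, 0 and 3.12 in wild-type libraries, and its log2 difference of -0.28 was 1.22 without WT453.

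Hist2h2aa1 had reads in a single library, KO451, where its neighbour Hist2h3c1 had its lowest value. Hist2h2aa1 had a normalized count of 84.7 in KO451, 0 in KO452 and 0 in KO457, against 0 in all 3 wild-type libraries. The authors' deposited table gives it an FDR of 5.55e-05, while limma gave an adjusted p of 0.678, and 1 library holds all of its reads. The knockout mean was at least 9.78-fold higher than a floor of 3 reads per wild-type library, and both groups were at 0 without KO451. Every 50-base stretch of Hist2h2aa1 also occurs in another gene. Gm20634, whose exons overlap Hist2h2aa1 and Hist2h3c1, had 34.3 in KO451 and 0 in the 5 other libraries. Gm20632 and Gm20633, which share stretches with Hist2h2aa1, had reads in every library, at 222, 296 and 289 and at 50.4, 93 and 19.7 in knockout libraries, against 251, 283 and 277 and 15.5, 12.2 and 21.8 in wild-type libraries. The part of read assignment between these models was not tested.

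All 17 H2B genes had a log2 fold change above 0, with a median of 0.91, although none reached an unadjusted limma p under 0.05. The class summed to 46.6, 37.5 and 33.1 CPM in knockout libraries, against 32.6, 28.9 and 32.0 CPM in wild-type libraries. The lowest knockout sum lay just above the highest wild-type sum. Hist1h2bc (chromosome 13, 23684199 to 23692908, plus strand) had normalized counts of 660, 668 and 518 in knockout libraries, against 498, 400 and 406 in wild-type libraries. It was the only one of the 6 most abundant members whose groups did not overlap. The log2 difference was 0.50 ± 0.23 (SE; limma adjusted p = 0.49). A two-sided exact permutation test of the log2 values had p = 0.1, the smallest that 3 against 3 libraries allow.

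Hist2h2be (chromosome 3, 96221119 to 96223738, plus strand) had 534, 306 and 315 in knockout libraries, against 254, 321 and 392 in wild-type libraries. KO451 stood above the other libraries, and without it the log2 difference of 0.23 ± 0.32 (SE; limma adjusted p = 0.823) became -0.03. Hist3h2ba (chromosome 11, 58948920 to 58949533, plus strand), which lies beside Hist3h2a, had 222, 66 and 96.6 in knockout libraries, against 27.8, 57.9 and 72.7 in wild-type libraries. Here too KO451 stood apart, and KO452 lay inside the wild-type range. The log2 difference was 1.18 ± 0.58 (SE; limma adjusted p = 0.504), and 0.69 without KO451. For both Hist3 genes WT453 was the lowest library.

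The 14 other H2B genes had mean levels from 2.89 normalized counts for Hist1h2bf to 57.6 for Hist1h2bg. Hist1h2bg was nearly equal between genotypes, with 75.0, 45 and 53.0 in knockout libraries, against 72.1, 44.1 and 56.1 in wild-type libraries. Hist1h2bj, Hist1h2bk and Hist1h2bl were highest in WT453, at 53.6, 41.2 and 10.3, and at 4.90 or less in WT454 and WT455. Hist1h2bh had 40.7, 20 and 29.1 in knockout libraries, against 22.7, 6.53 and 15.6 in wild-type libraries, a log2 difference of 1.05 ± 0.61 (SE; limma adjusted p = 0.542). Hist2h2bb had 16.1, 7 and 0 in knockout libraries, against 0, 2.45 and 0 in wild-type libraries, with the largest log2 difference of the class, 1.77 ± 1.18 (SE; limma adjusted p = 0.598). KO451 was its highest library, as it was for Hist2h2aa1, Hist2h2ab and Hist2h3b of the same Hist2 cluster, of which Hist2h3b had 11.8 there and 0 in the 5 other libraries.

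**Figure D4:**
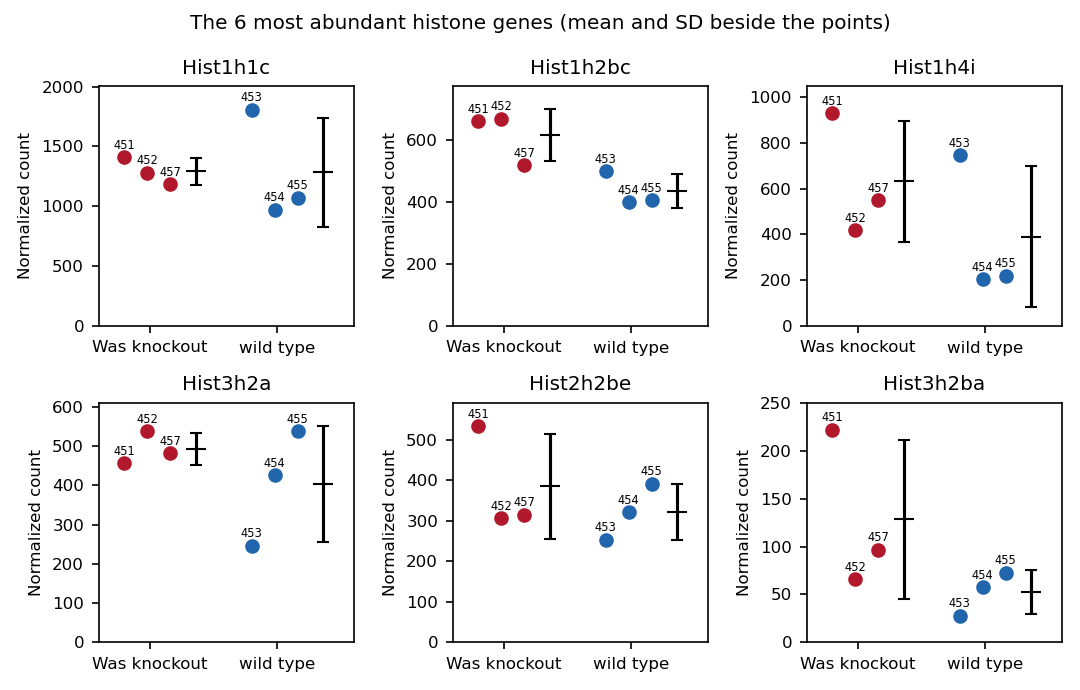
Normalized counts of the 6 most abundant histone genes in each library, with animal numbers beside the points; the bar beside each group is its mean with 1 SD (n = 3). Was knockout spleens are left and wild-type spleens right. The groups do not overlap for Hist1h2bc, with 518 to 668 against 400 to 498, and they overlap for the 5 other genes.

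H3 genes showed the smallest class median, 0.15, with 9 of 12 above 0. The class summed to 4.98, 4.53 and 5.31 CPM in knockout libraries, against 6.24, 4.27 and 4.24 CPM in wild-type libraries. Hist2h3c1, the H3 gene of highest level, had normalized counts of 18.2, 43 and 39.5 in knockout libraries, against 56.7, 69.3 and 56.1 in wild-type libraries. It was the only member with every knockout value below every wild-type value. The log2 difference was -0.92 ± 0.47 (SE; limma adjusted p = 0.512), and -0.54 without KO451. The sums of Hist2h3c1 and the overlapping Gm20634 were 52.5, 43 and 39.5 in knockout libraries, against 56.7, 69.3 and 56.1 in wild-type libraries. For these sums too the groups did not overlap. Every 50-base stretch of Hist2h3c1 also occurs in another gene.

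Hist2h3c2 had 21.4, 33 and 14.5 in knockout libraries, against 29.9, 22 and 16.6 in wild-type libraries. The knockout values enclosed the wild-type values, and the log2 difference was -0.03 ± 0.52 (SE; limma adjusted p = 0.994). Hist1h3d had 16.1, 14 and 22.9 in knockout libraries, against 8.25, 4.08 and 3.12 in wild-type libraries, or 14 to 22 reads against 3 to 8 reads. The groups did not overlap. A log2 difference of 1.66 ± 0.58 (SE; limma adjusted p = 0.391) stayed at 1.42 or more as each library was left out, and 24.8% of its 50-base stretches occur elsewhere, fewer than in the median member, at 56%. Of the other H3 genes, Hist1h3c, at a mean level of 19.2, had 32.2, 15 and 30.1 in knockout libraries, against 24.7, 4.08 and 9.35 in wild-type libraries. WT453 lay between the knockout values, and the log2 difference was 1.20 ± 0.73 (SE; limma adjusted p = 0.556). Hist1h3a, with 11.8, 2 and 15.6 in knockout libraries, against 9.28, 8.97 and 7.27 in wild-type libraries, had a log2 difference of -0.14. KO452 gave its lowest value and the 2 other knockout libraries its highest.

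Among H4 genes, 11 of 13 had a log2 fold change above 0, with a median of 0.61. The 13 genes summed to 30.1, 18.1 and 23.7 CPM in knockout libraries, against 31.7, 10.2 and 9.91 CPM in wild-type libraries. Hist1h4i (chromosome 13, 22040636 to 22041362, minus strand), which holds most of the class, had normalized counts of 928, 417 and 551 in knockout libraries, against 746, 203 and 220 in wild-type libraries. WT453 lay between KO451 and KO457, and the other wild types were the lowest libraries. This came to a log2 difference of 0.89 ± 0.55 (SE; limma adjusted p = 0.57), and of 1.49 without WT453. Hist1h4n had 44, 35 and 44.7 in knockout libraries, against 56.7, 29.4 and 24.9 in wild-type libraries, a log2 difference of 0.23 ± 0.47 (SE; limma adjusted p = 0.891).

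The H4 genes of smallest p rested on few reads. Hist1h4a had 17.2, 10 and 11.4 in knockout libraries, against 8.25, 0.816 and 0 in wild-type libraries, which are 16, 10 and 11 reads against 8, 1 and 0 reads. Hist1h4f had 3.22, 5 and 32.2 in knockout libraries, against 3.09, 0 and 0 in wild-type libraries, and KO457 held 31 reads, with 3 in KO451 and 5 in KO452. The groups did not overlap in either gene, although for Hist1h4f the step from KO451 to WT453 was 3 reads against 3. On the log2 scale Hist1h4a differed by 2.40 ± 0.91 (SE; limma adjusted p = 0.418). Hist1h4f differed by 2.56 ± 1.03 (SE; limma adjusted p = 0.433), and by 1.65 without KO457. Hist4h4, the single gene of its cluster, had 34.3, 15 and 11.4 in knockout libraries, against 13.4, 0 and 3.12 in wild-type libraries, with KO457 below WT453. Its log2 difference of 2.30 ± 1.03 (SE; limma adjusted p = 0.473) was the third in size among H4 genes. Hist1h4h and Hist1h4m were the H4 genes with a difference below 0, at -0.49 and -0.47, and both had few reads in KO451. Hist1h4h had 2.14, 26 and 27.0 in knockout libraries, against 50.5, 11.4 and 9.35 in wild-type libraries.

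Sequence shared between members limits what the single values mean. How reads that match several genes were counted is not given in the sources used here. Of each member's 50-base stretches, a median of 56% also occur in another gene's transcripts, and the share was 0% in Hist1h1a, Hist1h1b and Hist2h2be and 100% in Hist2h2aa1, Hist2h2bb, Hist2h3b and Hist2h3c1. The 34 members with at least 50% shared had a median log2 difference of 0.78 between genotypes, against 0.67 in the 30 others. The exons of 23 members overlap another gene. Strand was not given either, so that reads of overlapping genes cannot be told apart.

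Histone genes lie in divergent pairs, and 2 pairs joined an abundant member to a scarce one across a shared promoter. With starts no more than 1000 bases apart, 13 head-to-head pairs of members were found, 12 of them H2A with H2B, with 176 to 660 bases between the starts. Both genes had a log2 fold change above 0 in 10 of the 13 pairs, where 85.9% of all members taken singly did. Whether paired genes moved together more than other members was not tested. Hist1h2ac and Hist1h2bc start 251 bases apart, and their levels were 6.47 and 454.2 mean normalized counts per kb of exon. Hist2h2ac and Hist2h2be start 239 bases apart, with levels of 21.5 and 135 per kb. Hist1h2ac had normalized counts of 0, 18 and 19.7 in knockout libraries, against 18.6, 24.5 and 15.6 in wild-type libraries, where Hist1h2bc had between 400 and 668. The log2 difference of Hist1h2ac, -1.46 ± 1.18 (SE; limma adjusted p = 0.683), was -0.03 without KO451.

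The promoters of both pairs are shown because each window of 300 bases spans the whole stretch between the paired starts. They are RefSeq windows of GRCm38.p6, from 250 bases before to 50 after the start of the H2A gene, 5′ to 3′ on the minus strand. Capitals mark TATAAA, the TATA box, CCAAT or its reverse complement ATTGG, and the octamer ATTTGCAT or its reverse complement ATGCAAAT. The Hist1h2ac window is chr13:23683910-23684209 and the Hist2h2ac window chr3:96220831-96221130.
Hist1h2ac promoter: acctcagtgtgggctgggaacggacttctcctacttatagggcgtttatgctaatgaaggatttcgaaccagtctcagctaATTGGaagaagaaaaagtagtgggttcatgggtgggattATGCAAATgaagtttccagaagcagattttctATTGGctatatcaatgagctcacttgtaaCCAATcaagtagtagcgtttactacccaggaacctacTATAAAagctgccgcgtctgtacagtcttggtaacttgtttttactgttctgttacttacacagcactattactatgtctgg
Hist2h2ac promoter: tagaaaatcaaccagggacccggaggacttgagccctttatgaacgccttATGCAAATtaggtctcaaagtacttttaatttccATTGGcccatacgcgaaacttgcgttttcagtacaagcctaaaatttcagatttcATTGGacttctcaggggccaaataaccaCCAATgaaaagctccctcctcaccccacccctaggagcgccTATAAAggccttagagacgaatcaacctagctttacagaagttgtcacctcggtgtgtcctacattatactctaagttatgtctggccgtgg

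Both windows hold all 3 motifs. RefSeq windows were found for 57 of 64 members, 58 windows in all since Hist1h2be has 2, and motifs were searched on both strands. TATAAA was in 33 of 58 windows (56.9%), against 13.5% of 32793 other promoters. CCAAT was in 49 of 58 (84.5%), against 37.3%, and it was in all 15 H2A, 16 H2B, 10 H3 and 5 H1 windows but in 3 of 12 H4 windows (25%). The octamer ATTTGCAT, known as a site of Oct1 in H2B promoters, was in 6 of 15 H2A and 6 of 16 H2B windows and in 12 of 58 in all (20.7%), against 1.70% of other promoters. The H2A and H2B genes of a pair share these bases, and a missing match says only that these letters are not in the window.

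Genes that serve histone mRNA had smaller differences between genotypes than the members by median, and none passed the adjusted test. Of 27 measured genes of histone mRNA processing and transcription, 16 had a log2 fold change above 0 and 11 below, with a median of 0.23. Of these, 1, Ccne1, reached an unadjusted limma p under 0.05, where 5.5% of all genes tested were higher at that p. The median deviation of the 27 genes was 0.34, -0.07 and 0.03 in KO451, KO452 and KO457, against -0.04, -0.07 and -0.18 in WT453, WT454 and WT455. Slbp, the stem-loop binding protein, had normalized counts of 5741, 2319 and 3101 in knockout libraries, against 2850, 1355 and 1655 in wild-type libraries. Only KO452 lay inside the wild-type range. The log2 difference was 0.90 ± 0.41 (SE; limma adjusted p = 0.48). Npat, the coactivator of histone gene transcription, had 1564, 900 and 1038 in knockout libraries, against 657, 1054 and 913 in wild-type libraries. Unlike Slbp it was lowest in WT453, and it differed by 0.40 ± 0.29 (SE; limma adjusted p = 0.639). Ccne1, the cyclin E that drives Npat activity, had 4087, 1276 and 1945 in knockout libraries, against 1327, 621 and 879 in wild-type libraries, a log2 difference of 1.27 ± 0.47 (SE; limma adjusted p = 0.406).

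Histone chaperones, which carry new histones to DNA, had 15 of 20 genes above 0, with a median log2 fold change of 0.38. Rbbp4 (log2 fold change 0.75, limma adjusted p = 0.373), Asf1a (0.74, adjusted p = 0.434) and Chaf1b (0.89, adjusted p = 0.449) had an unadjusted p under 0.05. At that p, 5.5% of all genes tested were higher. Of 11 replication-independent histone genes, 10 were above 0, with a median of 0.37, and none reached that p. H3f3a had 34211, 23670 and 27942 normalized counts in knockout libraries, against 21329, 21569 and 20219 in wild-type libraries. Its groups did not overlap, unlike those of H3f3b, and it differed by 0.43 ± 0.21 (SE; limma adjusted p = 0.504).

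All 26 measured genes of DNA synthesis and S phase had a log2 fold change above 0, with a median of 1.10. An unadjusted limma p under 0.05 was reached by 15 of them, where 5.5% of all genes tested were higher at that p. None of the 26 passed the adjusted threshold. The count of 15 became 4 without KO451, 2 without WT454 and 3 without WT455. At that p, 760, 871 and 977 of all 22071 genes tested were then higher. It became 18 without KO452, 5 without KO457 and 22 without WT453, against 1165, 901 and 1883 of all genes tested. The 26 genes summed to 6238, 2742 and 3282 CPM in knockout libraries, against 3245, 1423 and 1837 CPM in wild-type libraries. Cdc6, the helicase loader, had normalized counts of 7338, 2137 and 2458 in knockout libraries, against 1133, 669 and 1015 in wild-type libraries, a log2 difference of 1.88 ± 0.48 (SE; limma adjusted p = 0.344). Pola1, the catalytic subunit of DNA polymerase alpha (1.51), Mcm2, a helicase subunit (1.10), and Cdt1, a licensing factor (0.94), had adjusted p-values of 0.344, 0.373 and 0.385 (limma). For S phase genes as for the members, KO451 was the highest library and WT454 the lowest by median deviation, at 1.27 and -1.10, and WT453 lay above the other wild types at 0.22.

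Markers of the cell types in the spleen differed between the libraries as well. All 11 measured erythroid markers had higher values in every knockout library than in any wild-type library, against 9.54% of all genes tested. Their median log2 difference was 2.94. Their sums were 81388, 27372 and 32203 CPM in knockout libraries, against 2373, 7647 and 12333 CPM in wild-type libraries. All 11 reached an unadjusted limma p under 0.05, where 5.5% of all genes tested were higher at that p, and none an adjusted one. The 6 markers of proliferating cells summed to 2659, 849 and 1281 CPM in knockout libraries, against 1763, 357 and 587 CPM in wild-type libraries, and their median log2 difference was 1.15. The 6 neutrophil markers summed to 11870, 8008 and 35693 CPM in knockout libraries, against 61147, 3305 and 7215 CPM in wild-type libraries, so that WT453 and KO457 were highest. All markers in these lists had reads in all 6 libraries. Median log2 fold changes were 1.24 for 6 red pulp macrophage markers and 0.68 for 4 germinal centre markers. They were 0.18 for 5 plasma cell markers, -0.55 for 6 B cell markers and -0.68 for 7 T cell markers. The part of these cell types in the histone values was not tested.

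**Figure D5:**
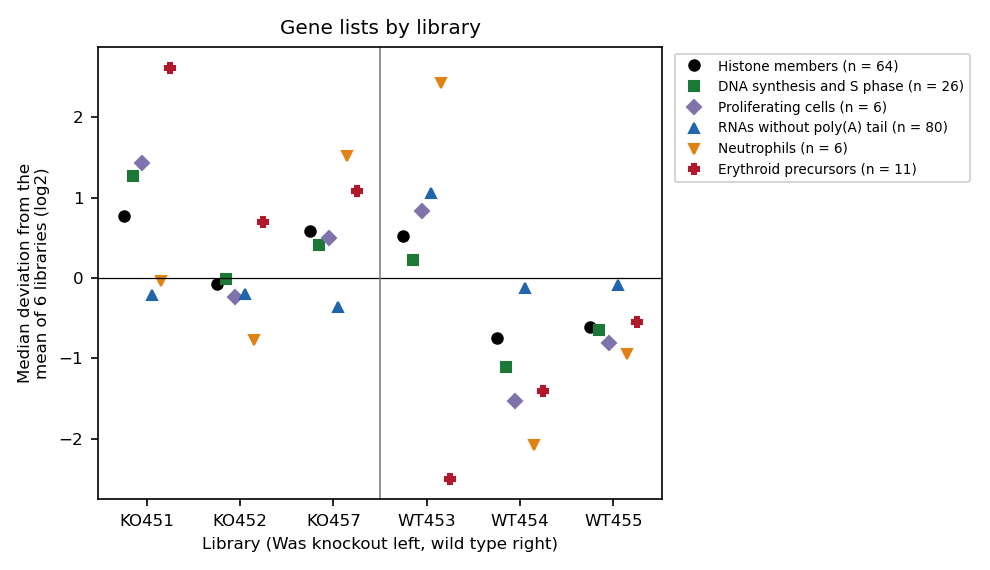
Median deviation, on the log2 scale, of the genes of each list from their mean over the 6 libraries, by library, with Was knockout libraries left and wild type right. The histone members (black circles), S phase genes (green squares) and proliferation markers (purple diamonds) are highest in KO451 and lowest in WT454. Neutrophil markers are highest in WT453 and erythroid markers in KO451.

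Other RNAs that lack a poly(A) tail had a median on the other side of 0. Of 80 tested RNAs of this kind, mostly small nucleolar RNAs, 58 had a log2 fold change below 0 and 22 above, with a median of -0.47. In 4 of them no knockout library had a read, and the median was also -0.47 with 3 of these at the bound of the floor and 1, at or under the floor in both groups, left out. None had an unadjusted limma p under 0.05 in the higher direction and 6 had one in the lower, against 5.5% and 5.46% of all genes tested. Without WT453 the median of the 80 RNAs was -0.21, with 34 above 0. Without WT454 it was -0.78, with 24 above 0. Their median deviation was -0.22, -0.20 and -0.36 in KO451, KO452 and KO457, against 1.06, -0.12 and -0.09 in WT453, WT454 and WT455. Their summed level was 25.4, 33.6 and 57.0 CPM in KO451, KO452 and KO457, against 67.6, 22.8 and 30.1 CPM in WT453, WT454 and WT455, so that WT453 and KO457 were highest. The RNA of the signal recognition particle, Rn7s1, had normalized counts of 191.9, 253 and 512 in knockout libraries, against 241, 47.3 and 111 in wild-type libraries. It was highest in KO457, as were Rn7s2, Rn7sk, Rmrp and Rpph1, and the log2 differences of these 5 RNAs lay between 0.38 and 1.45. None of the 5 reached an unadjusted limma p under 0.05, and Rn7s1 and Rn7s2 are close copies, so that the split of their reads is uncertain. Snord50a had normalized counts of 1.07, 1 and 1.04 in knockout libraries, against 11.3, 8.16 and 7.27 in wild-type libraries (limma adjusted p = 0.344). Snora20 had no read in any knockout library, against 6.18, 4.89 and 3.12 in wild-type libraries, which is at least 1.52-fold lower when set against a floor of 3 reads per library. These are small RNAs on few reads, and as background most small nucleolar RNA genes lie inside introns of other genes.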

How the data were processed

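RNA of 6 spleens, 3 Was knockout and 3 wild type, was sequenced. STAR 2.5.3a, StringTie 1.3.1c, FastQC 0.11.5, the build GRCm38 and DESeq stand in the submitters' processing notes without roles. Counting, strand and the treatment of multi-mapped reads are not stated in these sources. The deposited log2 values are log2(read count / size factor + 1), and whole reads were recovered from them for all values within a tolerance of 0.001. The authors' deposited p-value and FDR come from a test that is not described, and a suffix on the knockout column names is not explained.

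Genes with a mean normalized count of at least 1, 22071 of 26452, were tested with limma 3.58.1 (R 4.3.3) with an intensity trend, 2 groups, no covariate and Benjamini-Hochberg adjustment at 0.05. Fold changes on this scale understate changes of low genes. The labels state no batch, and p-values refer to the spread between these animals alone. Hairpins, shared 50-base stretches and positions came from GENCODE M21 transcripts, and promoters from RefSeq, by Python 3.11.15.

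The members and gene lists were chosen with earlier results of these data known, so lists are described by counts and medians. Named genes were the 2 most abundant members per class, up to 2 per class of smallest p under 0.05, members at an authors' FDR under 0.05, and up to 4 genes per list of smallest p under 0.05, or the 2 most abundant where none was. Other members, the overlapping predicted genes, H2afx, Rn7s1, Rn7s2, Rn7sk, Rmrp and Rpph1 were named after their values were seen. Printed sequences were also chosen then. Alternatives were other pseudocounts, filters and scalings, voom on whole reads, a stricter threshold and leaving out each library.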

Additional observations from a re-analysis of the deposited data

How the results depend on the processing

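No histone gene passed the adjusted threshold under any of the 12 alternative settings of the test or at an adjusted p of 0.01. At an unadjusted p the count of members ran from 0 without WT455 to 14 without WT453, with 3 at a pseudocount of 0.1, 1 at a mean of at least 10 (40 members), 7 under quantile normalization and 2 with voom. The counts over all 22071 genes tested moved as well. They were 977 higher and 1150 lower without WT455, and 1883 higher and 2135 lower without WT453. Whole-table counts at that p under the other scalings and filters are not given here. The members' median log2 fold change was above 0 throughout, from 0.63 at the stricter filter to 0.89 under quantile normalization, and from 0.44 to 1.17 as each library was left out. With voom it was 0.65, with 49 members above 0, where the median of all genes was -0.17. The count of all genes called was 2, against 1 with voom, 0 at an adjusted p of 0.01 and 0 to 2 as each library was left out. The cause was not tested.

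Of 569 values of named genes under the alternatives, 545 kept their direction and their side of the threshold, 5 lost the call and 19 changed sign. The 5 are those of Was as each library but WT453 was left out, with log2 fold changes from -3.76 to -3.53. Under quantile normalization the log2 fold change was -0.0137 for Hist1h1c, 0.0896 for Hist2h3c2, -0.14 for Jchain and -0.0148 for Mzb1, and with voom -0.0814 for Hist1h1c and -0.13 for Mzb1. As each library was left out, it ran from -0.11 to 0.34 for Hist1h1c, from -0.31 to 0.25 for Hist2h3c2, from -0.0303 to 0.38 for Hist2h2be and from -0.11 to 1.56 for Hist1h1d. Among list genes it ran from -0.29 to 1.71 for Ngp, from -0.17 to 1.90 for S100a8 and from -0.21 to 0.20 for Mzb1. No paired analysis was possible because the groups share no animal numbers. Depth limits the low members: 53 of 64 had a mean normalized count under 25, where 3 reads are 2.45 to 3.22 normalized counts.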
